A study of Mus musculus with 8 samples.

Results

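The nuclei described here were taken as non-sinusoidal vascular endothelial nuclei of mouse liver. The name stands for cells that line the larger vessels as opposed to the sinusoids, and it rests on the rule below. The nuclei were chosen on their own counts of unique molecular identifiers (UMIs, each standing for 1 captured RNA molecule). A barcode was a member when it had at least 300 detected genes, at least 2 UMIs summed over the endothelial genes Ptprb, Flt1, Adgrl4 and Pecam1, at least 1 UMI of Vwf, 0 UMIs of Stab2, and at most 1 UMI over Ptprc, Reln, Pkhd1 and Clec4f, which mark leukocytes, stellate cells, cholangiocytes and Kupffer cells. In 7 libraries, 323 of 59446 barcodes with enough genes met this rule, and they are called vascular nuclei below. The rule skips 1 of the 8 libraries of the series, which holds exactly 20000 barcodes. Over all 8 libraries, 79446 of 80575 barcodes had enough genes.

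Blood reaches the liver through portal veins and hepatic arteries, passes the sinusoids, and leaves by central veins. Sinusoidal endothelium is fenestrated and scavenges macromolecules through receptors such as Stab2, whereas the endothelium of larger vessels is continuous and stores von Willebrand factor (Vwf), the carrier that tethers platelets at sites of injury. Central vein endothelium is known as a source of Wnt ligands and of R-spondin 3, which set the pericentral programme of neighbouring hepatocytes.

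All mice were male DIAMOND mice, labelled as a 129A1/SvIm and C57BL/6J cross, and the livers were snap-frozen. The WD tumour group (n = 3 mice) had a Western Diet, high in fat with sugar water, for 48 weeks and developed hepatocellular carcinoma. The mice of the RD groups had the same diet for 36 weeks and then returned to standard chow. Of these, the RD no tumour group (n = 3) had no detectable tumour, and RD tumour 2 is the mouse with a tumour in the libraries used (n = 1). WD tumour and RD no tumour mice thus differ in both final diet and tumour, and the contributions of these cannot be told apart. The labels do not say whether the frozen piece held tumour, and they give both 48 weeks of age and diets that began at 2 months of age and lasted 48 weeks, so age is not used. Each mouse is 1 library and 1 replicate.

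Library totals in barcodes with enough genes ranged from 17948627 UMIs (WD tumour 1) to 32208799 (RD no tumour 3). Summed over the vascular nuclei of a mouse, the depth was 60947 to 151918 UMIs, with medians of 1147 (RD tumour 2) to 2424.5 (WD tumour 2) UMIs per vascular nucleus. RD no tumour 1 and WD tumour 2 stood apart in Vwf outside endothelial nuclei: 1.47% and 2.79% of their nuclei that met none of the endothelial terms had a Vwf UMI, against 0.532% to 0.931% in the other 5 libraries. The median mitochondrial share of the vascular nuclei was 5.93%, 2.15% and 6.44% in WD tumour 1 to 3, 1.72%, 3.78% and 2.14% in RD no tumour 1 to 3, and 2.50% in RD tumour 2. Of 59050 distinct barcodes, 395 occurred in more than 1 library, and 5 vascular nuclei had such a barcode.

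The genes that chose the members are given as a description only. Ptprb, a receptor phosphatase that restrains Tie2 signalling, was detected in 299 of the 323 nuclei, the adhesion molecule Pecam1 in 238, the VEGF receptor Flt1 in 220 and the adhesion receptor Adgrl4 in 182. Vwf (ENSMUSG00000001930, chromosome 6, 125546774 to 125686679 in GRCm38, plus strand) summed per mouse to 894 to 1270 CPM (UMIs of the gene per 1000000 UMIs of the summed nuclei). Membership rested on few molecules: 144 nuclei had 1 Vwf UMI, 75 had 2, 45 had 3 and 59 had 4 or more. The endothelial sum was 2 in 30 nuclei, 3 in 29, 4 in 19 and 5 or more in 245. Just outside the rule lay 70 barcodes with an endothelial sum of 1, 31 with 1 Stab2 UMI and 22 with 2 UMIs of the 4 excluding genes. Of the members, 55 held 1 UMI of those genes.

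The rule was also applied without its Vwf and Stab2 terms. Of the 6661 endothelial nuclei this gave, 3983 had Stab2 and no Vwf and are called sinusoidal nuclei below, 203 had both, and 2152 had neither. The nuclei with both came mainly from the libraries with the highest Vwf background, 66 from RD no tumour 1 and 65 from WD tumour 2, against 9 to 23 in each other library. At these depths a nucleus with neither gene cannot be assigned to a class.

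Vascular nuclei made up less than 1% of the nuclei in each mouse, and the groups overlapped. Their share of all nuclei was 0.619%, 0.736% and 0.473% in WD tumour 1 to 3 (0.610% ± 0.131, SD, n = 3), and 0.594%, 0.645% and 0.338% in RD no tumour 1 to 3 (0.526% ± 0.164, n = 3). In RD tumour 2 it was 0.520%. The log2 difference of the WD tumour and RD no tumour means was 0.25 (two-sided exact permutation test on log2 shares, p = 0.6; 3 mice against 3 cannot go below 0.1). As a share of endothelial nuclei the values were 5.68%, 8.05% and 4.81% in WD tumour (6.18% ± 1.68, n = 3), 5.85%, 4.28% and 2.70% in RD no tumour (4.28% ± 1.58, n = 3), and 4.55% in RD tumour 2, a log2 difference of 0.57 (exact permutation test, p = 0.3). After each nucleus was thinned to 1000 UMIs, which left 4225 to 8237 nuclei per mouse, the log2 differences were 0.67 and 0.60 (exact permutation test, p = 0.2 for both). WD tumour 2 was the highest and RD no tumour 3 the lowest mouse on both scales. WD tumour 2 also had the highest Vwf background outside endothelial nuclei (2.79%), and the part of this background in the shares was not tested. A difference between the groups was not detectable with this number of mice. The direction of the share of all nuclei turned when RD no tumour 3 was left out, to a log2 difference of -0.04.

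**Figure D1:**
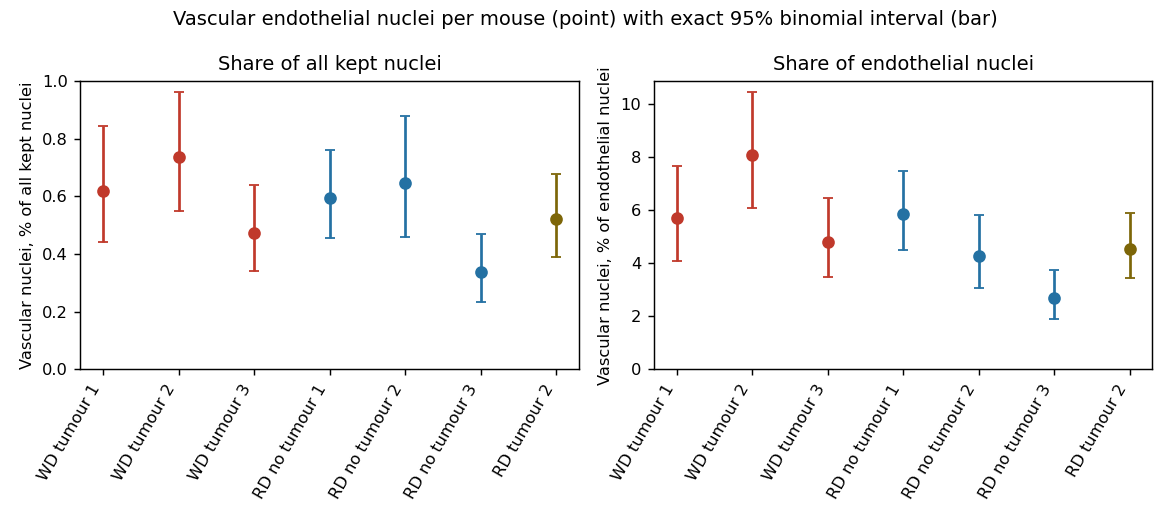
Vascular nuclei as a percentage of all nuclei with enough genes (left) and of endothelial nuclei (right), 1 point per mouse, with exact (Clopper-Pearson) 95% binomial intervals that cover counting error only. WD tumour 2 is highest (0.736% and 8.05%) and RD no tumour 3 lowest (0.338% and 2.70%), and the other mice lie between them.

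The 323 nuclei were clustered on their own to describe how they differ among themselves. The genes that lead a cluster made the cluster and are not tested, and a cluster was named from marker lists only where at least 5 markers exceeded a log2 ratio of 1 over the other vascular nuclei and 2 of them stood among its 10 leading genes, limits chosen after the values were seen. A portal-like cluster of 69 nuclei was led by Hmcn1, an extracellular matrix protein (837 CPM against 47.3 in the other vascular nuclei), Slit2, a guidance ligand (305 against 13.5 CPM), the scavenger receptor Msr1 (610 against 45.6 CPM) and Nrg1, the ErbB ligand neuregulin 1 (602 against 50.7 CPM). In it 8 of 9 portal markers passed a log2 ratio of 1, as did 6 of the 15 arterial markers. So did 2 of 17 sinusoidal markers, Clec4g and Mrc1. Its portal markers Adam23 and Lama4 were lower in vascular than in sinusoidal nuclei (below). A central vein-like cluster of 31 nuclei held Wnt9b at 396 against 57.9 CPM and was led by Adamtsl1 (934 against 45.7 CPM), with Rspo3, Wnt2, Lhx6 and Ptgs1 also past a log2 ratio of 1. An arterial-like cluster of 23 nuclei was led by Ebf1 (904 against 7.31 CPM) and Pde3a (707 against 13.2 CPM) and held the arterial genes Efnb2, Gja5, Dll4, Jag1, Bmx, Fbln5 and Nebl past that ratio.

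The other clusters stayed unnamed. Cluster 1 (46 nuclei) was led by Mctp1 (507 against 81.7 CPM) and Lsamp (1595 against 309 CPM), and 4 of 10 central vein markers passed a log2 ratio of 1 in it (Rspo3, Wnt2, Wnt9b and Bmp4). Cluster 3 (65 nuclei) was led by Egfem1 (900 against 84.8 CPM) and also held Rspo3, Selp and Bmp4 past that ratio, together with the sinusoidal genes Stab1, Oit3, Flt4 and Plxnc1. Cluster 2 (43 nuclei) had the lowest median depth, 1111 UMIs, and the highest median mitochondrial share, 5.44%, with hepatocyte genes such as Cyp2a5 among its leaders and 5 of 10 hepatocyte markers past a log2 ratio of 1. Cluster 5 (34 nuclei, median 4558 UMIs) was led by hepatocyte genes such as Dpyd and Egfr, with 3 of 10 hepatocyte markers past that ratio, and 14 of its nuclei were called doublets. The other clusters had medians of 1111 to 1978 UMIs, so cluster 5 weighs more in summed counts than its number of nuclei shows. Cluster 8 (12 nuclei) was led by leukocyte genes, and 4 of its nuclei were called doublets. Without clusters 5 and 8, 277 nuclei remained.

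The portal-like cluster had 7, 9 and 11 nuclei in WD tumour 1 to 3, 17, 12 and 7 in RD no tumour 1 to 3, and 6 in RD tumour 2. The central vein-like cluster had 3, 5 and 4 nuclei in WD tumour mice, 7, 4 and 6 in RD no tumour mice, with 2 more from RD tumour 2. The arterial-like cluster took 14 of its 23 nuclei from RD tumour 2 and 1 to 3 from each other mouse. Whether it reflects that library or a vessel type was not tested. These sizes are not compared between groups, because the genes that define the clusters differ in level between mice.

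**Figure D2:**
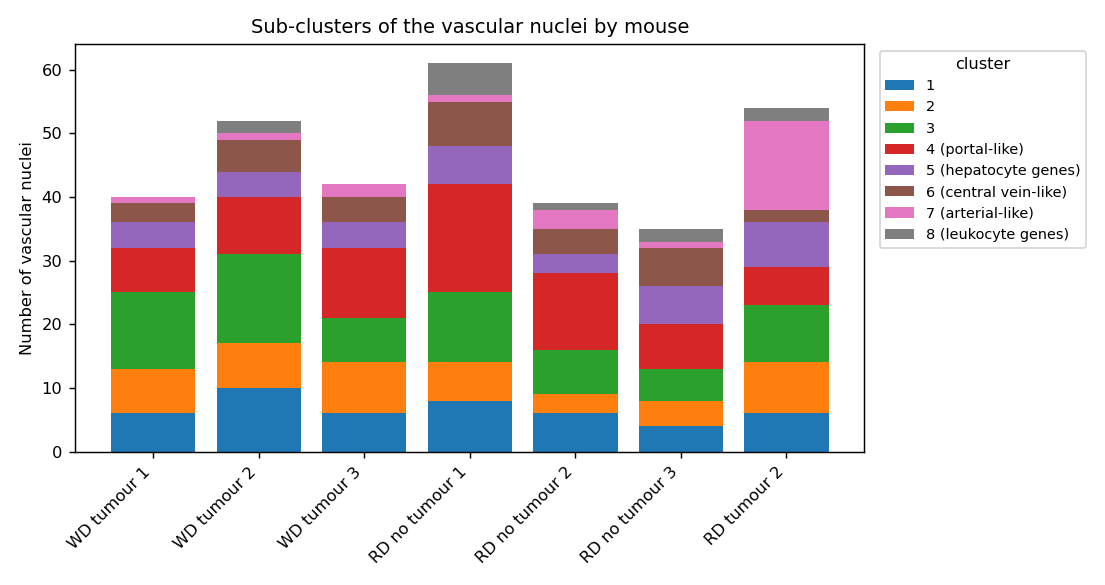
Number of vascular nuclei of each of the 8 clusters (stacked colours) in each mouse (bars). Clusters 1 to 6 are present in all 7 mice, while the arterial-like cluster has 14 nuclei in RD tumour 2 and 1 to 3 elsewhere.

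Central vein and portal genes were found together in many nuclei. Of the 323, 80 had a UMI of Rspo3, Wnt2 or Wnt9b and none of Msr1, Adgrg6 or Ntn4, 87 had the reverse, 79 had both and 77 had neither. The product of the marginal shares gives 81.7 nuclei with both, close to the 79 found. Nuclei with a central vein gene were 49.2% of vascular nuclei, 11.7% of sinusoidal nuclei and 5.49% of nuclei without endothelial genes, the background in other cells, and a portal gene was found in 51.4%, 52.6% and 8.72%. Depths were not equalised for these shares: median UMIs per nucleus in the 7 mice were 1147 to 2424.5 in vascular, 1376.5 to 2168 in sinusoidal and 1004 to 3009 in the remaining nuclei. RD tumour 2 had the lowest share of vascular nuclei with a central vein gene, 25.9%.

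Vascular and sinusoidal nuclei of the same mice were then compared, and the counts given leave out the genes of the rule. Both classes were chosen on Vwf and Stab2 of the same nuclei, so genes that vary with these were bound to differ, and the tests below give how repeatable a difference was over the 7 mice. Counts were summed per mouse and class and tested with edgeR's quasi-likelihood test, mouse as a block, with Benjamini-Hochberg adjustment. Of 7939 genes tested, 335 (4.22%) were higher and 345 (4.35%) lower in vascular nuclei at an adjusted p under 0.05, 680 (8.57%) in all. In 132 genes (1.66%) the 7 vascular values and the 7 sinusoidal values did not overlap. Without RD no tumour 1 and WD tumour 2, 233 genes were higher and 204 lower of 8144 tested. The median log2 difference over all genes tested was -0.03.

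Genes of central vein endothelium were all higher in vascular nuclei: 7 of 7 tested members of the 10-gene list, with a median log2 difference of 2.72. Of the 7, Wnt9b and Bmp4 reached the level of the low-count filter (18.4 CPM) in vascular nuclei alone, as did Fbln2, Bmx, Eln and Mgp of the other lists, so that their direction was set once they were tested, and the counts of their lists include them. Rspo3, the R-spondin that strengthens Wnt signalling (chromosome 10, 29452416 to 29535867 in GRCm38, minus strand), had 259 CPM in the lowest mouse (RD tumour 2), a median of 874 and a highest value of 1425 (WD tumour 1) in vascular nuclei, against 19.1, 31.5 and 41.3 CPM in sinusoidal nuclei, a log2 difference of 4.87 ± 0.21 (SE, n = 7 mice, edgeR adjusted p 7.5e-21). All 7 mice had more Rspo3 in vascular nuclei, without overlap of the classes. Wnt9b, a Wnt ligand, had 31.0 to 138 CPM (median 53.9) against 0 to 3.59 (median 0.733), a log2 difference of 5.91 ± 0.47, again without overlap. Wnt2 differed less, with 32.3 to 122 CPM (median 80.1) against 14.8 to 57.9 (median 26.8), a log2 difference of 1.41 ± 0.29 (edgeR adjusted p = 0.00069), and the classes overlapped. The adhesion molecules Cdh13 and Selp (P-selectin, which captures leukocytes and platelets) were higher by 2.54 ± 0.14 and 2.72 ± 0.26 on the log2 scale, and the cyclooxygenase Ptgs1 by 1.19 ± 0.24.

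Bmp4, a secreted ligand of the bone morphogenetic protein family, completed that list, with 43.1 to 145 CPM (median 72.8) in vascular against 1.36 to 6.45 (median 2.87) in sinusoidal nuclei, a log2 difference of 4.53 ± 0.41. Cd200, an inhibitory ligand for myeloid cells that was among the genes with the largest differences, had 31.0 to 172 CPM (median 92.3) against 1.20 to 6.45 (median 3.82), a log2 difference of 4.76 ± 0.37. Their promoters are shown because they were the ones, among the vascular-higher genes named or listed here, whose 250 bases before the start held either of the motifs searched on both strands. The first, AGATAA, is bound by the GATA family. The other, CCGGAAG, is bound by the ETS family. Both families are known for endothelial genes. The sequences are from RefSeq (GRCm38.p6) and read 5′ to 3′ on the strand of the gene, which is the minus strand for both. Capitals mark the match, in Bmp4 the reverse of the ETS motif and in Cd200 the GATA motif. Bmp4 lies at chr14:46390670-46390919 and Cd200 at chr16:45409054-45409303.
Bmp4: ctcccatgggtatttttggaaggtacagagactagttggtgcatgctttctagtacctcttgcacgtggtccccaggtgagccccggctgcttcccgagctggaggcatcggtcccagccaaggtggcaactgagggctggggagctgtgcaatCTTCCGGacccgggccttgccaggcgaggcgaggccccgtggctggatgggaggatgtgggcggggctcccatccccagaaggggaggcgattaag
Cd200: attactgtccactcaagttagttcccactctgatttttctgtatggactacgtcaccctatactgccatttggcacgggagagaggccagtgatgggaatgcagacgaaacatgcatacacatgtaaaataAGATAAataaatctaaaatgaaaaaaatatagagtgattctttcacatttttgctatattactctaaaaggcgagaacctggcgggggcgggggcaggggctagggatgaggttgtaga
The match ends 90 bases before the start in Bmp4 and 114 in Cd200. Of 46 such genes 36 had a promoter in the table, giving 40 windows, and each motif was in 2.5% of them. Of all 32851 promoter windows, 9.99% held the GATA motif and 6.91% the ETS motif. Of the 360 windows of all vascular-higher genes, 6.11% and 4.72% did, and of the 376 windows of vascular-lower genes 7.18% and 5.85%. Neither motif was thus more frequent in the windows of vascular-higher genes than in promoters at large.

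Genes of continuous endothelium were mostly higher, 8 of 11 tested, none lower, with a median log2 difference of 1.09. Mecom, a transcription factor of haematopoietic and arterial cells, had 623 to 1404 CPM (median 869) against 33.3 to 84.4 (median 49.1), a log2 difference of 4.14 ± 0.17. Entpd1, the ectonucleotidase CD39 that degrades platelet-activating ADP, had 226 to 579 CPM (median 262) against 8.15 to 39.2 (median 25.1), 3.67 ± 0.21 higher on the log2 scale. The diaphragm protein Plvap was higher by 2.21 ± 0.29 and the matrix protein Fbln2 by 6.36 ± 0.44. Cd9, a tetraspanin (1.61 ± 0.21), lies near Vwf on chromosome 6 without overlapping it. Vim, Tm4sf1 and Bgn made up the rest of the calls. Among the 16 tested pan-endothelial genes, Eng, Emcn, Tek and Tie1 were higher by 0.55 to 0.91 on the log2 scale, and the other 12 did not pass, among them Cdh5 at 0.28 ± 0.17 and Erg at 0.03 ± 0.16.

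Genes of sinusoidal identity were lower in vascular nuclei in 11 of 15 tested, none higher, with a median log2 difference of -1.24. Dnase1l3, a secreted DNase, had 0 to 32.3 CPM (median 14.6) in vascular against 141 to 308 (median 220) in sinusoidal nuclei, a log2 difference of -3.94 ± 0.32. The inhibitory Fc receptor Fcgr2b differed by -3.01 ± 0.27, the lectin Clec4g by -2.44 ± 0.21, the ligand Bmp2 by -2.04 ± 0.27, the mannose receptor Mrc1 by -1.80 ± 0.17 and the receptor Flt4 by -1.63 ± 0.20. The lower levels were not absence: Mrc1 had 145 to 402 CPM (median 226) in vascular nuclei, and 840.6 CPM was the median of the clotting factor gene F8, whose log2 difference was -0.12 ± 0.13. The cardiac and sinusoidal transcription factor Gata4 did not pass either (0.42 ± 0.15, edgeR adjusted p = 0.0661). Nor did the sinusoidal gene Stab1 (-0.08, edgeR adjusted p = 0.8685). The antisense transcripts Gm16271 and Gm16268, lower by -5.31 and -3.93, overlap Stab2 and are not independent of the rule.

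**Figure D3:**
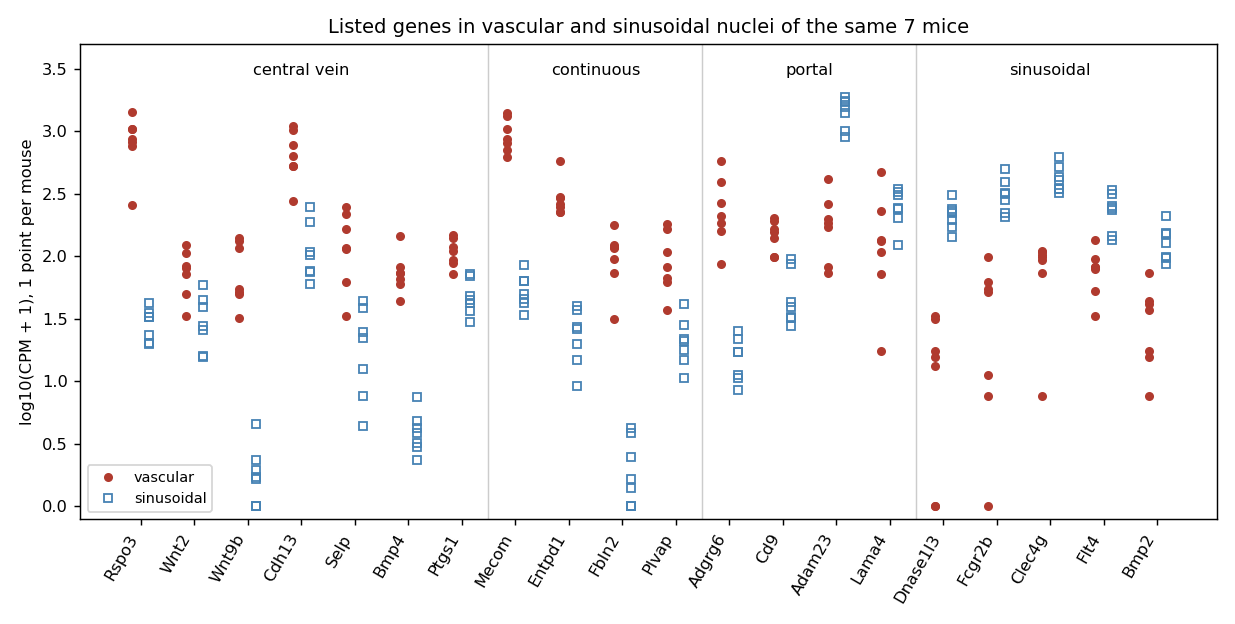
Level of 20 listed genes (vertical axis, log10 of CPM + 1) in vascular (filled) and sinusoidal (open) nuclei, 1 point per mouse, grouped by list. Rspo3, Wnt9b, Bmp4, Mecom and Entpd1 do not overlap between the classes, whereas Wnt2, Ptgs1 and Lama4 do, and the sinusoidal genes Dnase1l3, Fcgr2b and Clec4g are lower in vascular nuclei.

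Portal genes moved both ways, 3 of 8 tested higher and 2 lower. The adhesion receptor Adgrg6 was higher by 4.11 ± 0.30 (86.2 to 584 CPM, median 211, against 7.47 to 24.5, median 16.1), and Cd9 and the lymphangiogenic ligand Vegfc (0.98 ± 0.32) were higher too. Adam23, an adhesion protein without protease activity, was lower by -2.93 ± 0.20 (72.3 to 415 CPM, median 183, against 898 to 1893, median 1581), and the laminin chain Lama4 by -0.70 ± 0.20. Ntn4 (-0.01 ± 0.15) and Msr1 (-0.54 ± 0.18) did not pass. Of the arterial list 5 of 15 genes were tested and Bmx, a non-receptor tyrosine kinase, passed. It had the largest difference of the named genes, with 79.0 to 226 CPM (median 110) against 0 to 4.51 (median 0.679), a log2 difference of 6.59 ± 0.40. Venous genes were higher in 4 of 5 tested, by 0.53 to 1.07 on the log2 scale: Vcam1, the receptor Ephb4, the venous transcription factor Nr2f2 and the interleukin-1 receptor Il1r1. Of 4 lymphatic genes tested, Sema3d was higher and Lyve1 and Flt4, which sinusoids also express, were lower.

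By function, of 7 haemostasis genes tested 4 were higher and 1 lower, with a median of 1.61. Edn1, the precursor of the vasoconstrictor endothelin 1, had 53.9 to 189 CPM (median 145) against 2.00 to 27.9 (median 5.73), 3.98 ± 0.30 higher on the log2 scale, and Nos3, the endothelial nitric oxide synthase, was higher by 1.61 ± 0.23. Tfpi, an inhibitor of coagulation, was lower by -0.68 ± 0.22. In the VEGF and angiopoietin list 3 of 12 tested genes were higher (Tek, Tie1 and Vegfc) and 6 lower, among them the VEGF receptor Kdr (-1.20 ± 0.19), the Tie2 ligand Angpt2 (-1.67 ± 0.28) and Esm1, a proteoglycan of tip cells (-2.83 ± 0.43). Notch1 (0.66 ± 0.19) was the sole call among 7 Notch genes tested. Leukocyte adhesion genes held 3 higher and 1 lower of 13, the latter the chemokine Cxcl9 at -1.72 ± 0.39.

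The matrix list was split, 4 higher and 3 lower of 14. Elastin (Eln) had 131 to 474 CPM (median 195) against 0 to 10.7 (median 3.59), 5.67 ± 0.31 higher on the log2 scale, and was highest in RD tumour 2. The calcification inhibitor Mgp was higher by 4.26 ± 0.39, and Fbln2 and Bgn were higher, whereas Lama4, Sparc and Nid1 were lower by -0.70 to -0.91. In the BMP and TGF beta list 4 of 17 were higher, among them Bmp4 and the receptor Tgfbr2 (1.41 ± 0.16), and Bmp2 and Bmp6 (-1.48 ± 0.21) were lower. Of 8 lipid uptake genes tested, the caveolar protein Cavin2 and the fatty acid binding protein Fabp4 were higher by 0.95 and 0.75, and the fatty acid translocase Cd36 was lower by -1.44 ± 0.19. Of 13 flow and barrier genes 4 were higher, with the junctional protein Jam2 at 1.97 ± 0.16 and the mechanically gated channel Piezo1 at 0.65 ± 0.21, and 1 was lower, the junctional scaffold Magi1 at -0.51 ± 0.13.

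**Figure D4:**
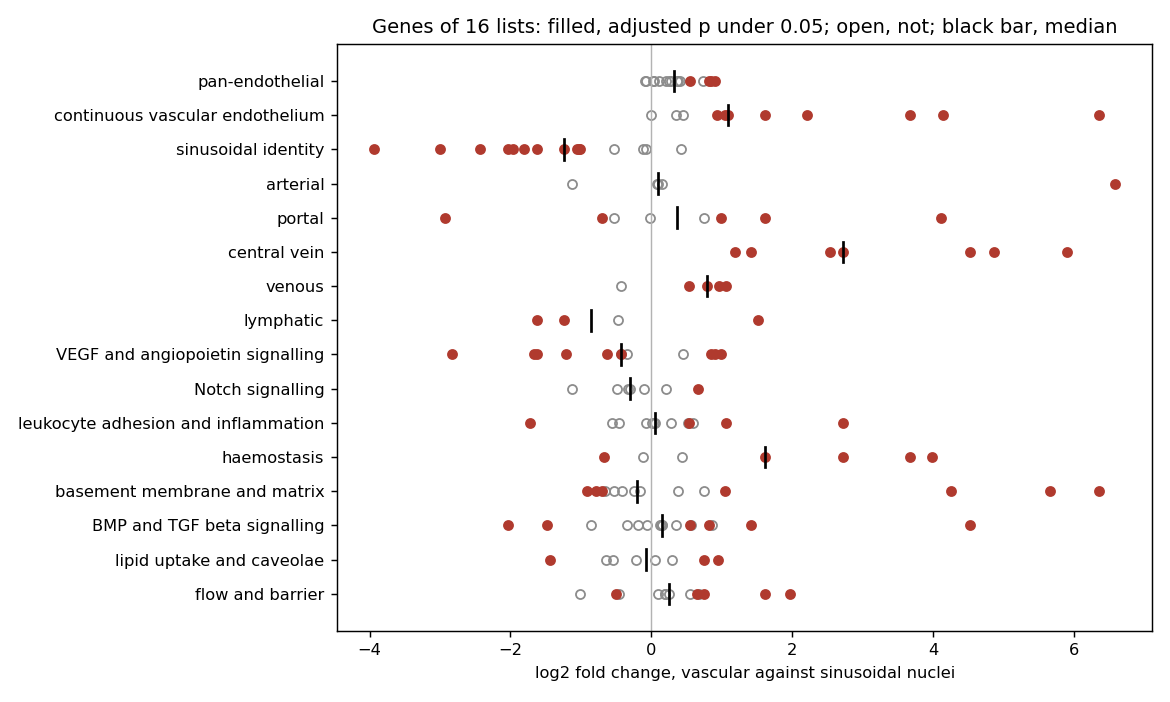
Log2 difference between vascular and sinusoidal nuclei (horizontal axis) of each tested gene of 16 lists, filled where the adjusted p is under 0.05, with a black bar at the median of the list. All 7 central vein genes lie to the right of 0, 11 of 15 sinusoidal genes are filled to the left, and the portal and matrix lists lie on both sides. The low-count filter set the direction of the central vein genes Wnt9b and Bmp4.

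Other genes with large and repeatable differences belonged to no list. The neuronal adhesion protein Lsamp had 183 to 1126 CPM (median 317) in vascular against 3.39 to 15.5 (median 4.399) in sinusoidal nuclei, 5.80 ± 0.26 on the log2 scale. Thsd7a, a membrane protein that guides endothelial migration, had 388 to 804 CPM (median 541.5) against 11.6 to 49.7 (median 16.9), 4.63 ± 0.18. Myrip (5.60 ± 0.28), an adaptor linking vesicles to myosin, Samd5 (5.72 ± 0.43), Adamtsl1 (5.58 ± 0.37) and the malic enzyme Me3 (5.27 ± 0.52) were higher as well. On the lower side stood the sodium-proton exchanger Slc9a9 (-3.13 ± 0.27), Csmd1 (-3.25 ± 0.28), the kinase Tnik (-3.01 ± 0.34), hepatocyte growth factor Hgf (-2.63 ± 0.33), Gatm (-2.63 ± 0.42) and Celf4 (-2.48 ± 0.46). The same sign in all 7 mice was a condition for naming each of these genes. Lsamp, Myrip, Samd5, Adamtsl1, Me3 and Cd200 also stayed under the level of the low-count filter in every sinusoidal sum, which set their direction.

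RNA of other cell types was present in both classes. The 10 hepatocyte genes summed to 16685 to 32783 CPM in the vascular nuclei of the 7 mice and to 17509 to 36075 in the sinusoidal nuclei. The macrophage list summed to 317 to 375 CPM in vascular against 367 to 628 in sinusoidal nuclei, with 9 of 10 genes detected in vascular nuclei. The T and NK cell list (8 of 10 genes detected) summed to 0 to 108 against 26.8 to 79.3 CPM and the B cell list (5 of 8) to 10.8 to 52.7 against 35.4 to 73.9. The stellate list (10 of 10) had 114 to 625 against 275 to 613 CPM, the fibroblast list (10 of 10) 32.8 to 129 against 12.4 to 85.1, and the smooth muscle list (7 of 8) 72.4 to 246 against 79.3 to 253. The cholangiocyte list (8 of 10, with Krt7 and Cftr at 0) had 20.7 to 197 against 33.3 to 128 CPM, and the megakaryocyte list (5 of 8), whose cells also carry Vwf, 0 to 65.5 against 5.19 to 46.9. The ranges of all these lists overlapped between the classes. The mesothelial list was the exception, with 129 to 372 CPM in vascular against 9.18 to 64.1 in sinusoidal nuclei. Of its 169 UMIs in vascular nuclei 165 were of Gpm6a, a membrane glycoprotein, which was higher by 2.85 ± 0.26 on the log2 scale (edgeR adjusted p 6.33e-11), while Wt1, Upk3b and Lrrn4 were at 0. In the hepatocyte, stellate and macrophage lists single genes were called lower in vascular nuclei and no gene higher. These were Cps1 and Pck1 (hepatocyte), Hgf (stellate) and Mertk (macrophage). Without the clusters led by hepatocyte and leukocyte genes, 484 genes were higher and 867 lower of 7540 tested. In that fit the central vein list again had 7 of 7 higher, with the direction of Wnt9b and Bmp4 set by the low-count filter. Cluster 2, with 5 hepatocyte markers past a log2 ratio of 1, was still included there.

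Between WD tumour and RD no tumour mice no gene of the vascular nuclei passed the test, with edgeR's quasi-likelihood test on summed counts of 3 mice against 3. Of 3782 genes tested, 0 (0%) had an adjusted p under 0.05, as with DESeq2. At an unadjusted p under 0.05 stood 174 genes (4.6%), 69 (1.82%) higher and 105 (2.78%) lower in WD tumour, and with DESeq2 77. In 443 genes (11.7%) the 3 mice of each group did not overlap. Each mouse had 35 to 61 vascular nuclei. In counts simulated for this comparison, 66% of genes changed 4-fold and 87% of those changed 16-fold were recovered. Of 3587 unchanged genes 16 were called, and the simulated libraries shared no variation. In summed counts, fewer nuclei of a kind and less RNA per nucleus cannot be told apart.

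Of the genes whose groups did not overlap, those with the lowest p are given with their values, none being past the threshold. The lack of overlap was thus a condition for naming them. Nnmt, nicotinamide N-methyltransferase, had 62.0, 26.3 and 60.9 CPM in WD tumour 1 to 3 (49.7 ± 20.3, SD) and 218, 236 and 230 in RD no tumour 1 to 3 (228 ± 8.78), and 539 in RD tumour 2. All RD mice lay above all WD mice, with a log2 difference of -2.29 ± 0.40 (SE; edgeR adjusted p = 0.243). The same gene differed by -2.10 in sinusoidal nuclei and by -1.82 in the remaining nuclei, and Nnmt is a hepatocyte gene, so the part of hepatocyte RNA in it was not tested. The 10 hepatocyte genes summed to 22624 to 28301 CPM in the vascular nuclei of WD tumour mice, 16685 to 32783 in those of RD no tumour mice and 31080 for RD tumour 2. Serpina3k, a secreted serine protease inhibitor with close paralogs that can share reads, had 362, 546 and 475 CPM against 1173, 1209.7 and 1608, and differed by -1.48 in sinusoidal nuclei and -1.04 in the rest. The metabolic genes Kynu, Asl and Slc37a4, the ubiquitin gene Ubb, and Gucd1 and Camk2b were also lower at an unadjusted p under 0.05, with adjusted p of 0.625 to 0.817 (edgeR).

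On the higher side, the transcript 2610307P16Rik had 134, 191 and 134 CPM in WD tumour 1 to 3 and 14.6, 0 and 0 in RD no tumour 1 to 3 (edgeR adjusted p = 0.243). Its UMIs came from 32 nuclei of WD tumour mice and 1 nucleus of RD no tumour mice, and from 2 nuclei of RD tumour 2. Airn, a long non-coding RNA, had 630, 625 and 280 CPM against 117, 154 and 115, but overlaps Igf2r on the opposite strand, and strand use is not given in the sources used here. Tenm3, Pknox2, Esrrg and Gm12840 were also higher, with adjusted p of 0.666 to 0.817 (edgeR). Adgrv1 and A2m were also among the lowest p, but 31 of the 53 Adgrv1 UMIs and 69 of the 85 A2m UMIs lay in 1 nucleus of WD tumour 2.

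RD no tumour 1 and WD tumour 2 deviated together from their group means (r = 0.51 over the genes tested, the highest of the pairs between the groups and given as a description, since genes do not count as replicates), and the comparison was repeated with this pair of libraries as a block. The labels name no batch for these libraries. The pair shows in the same counts that were tested, so the adjusted p of both fits are given as a description. With the block 25 genes passed, 5 higher and 20 lower in WD tumour. Without both libraries 14 of 3446 passed, 1 higher and 13 lower. Serpina1e, Mup7, Saa1, Mup3, Orm1, Serpina3k and Camk2b were lower in both fits. Without both libraries the other 6 lower genes were the haemoglobin genes Hba-a1, Hba-a2, Hbb-bs and Hbb-bt, the urinary protein gene Mup11 and Nrg1, and the higher gene was Egfem1. Saa1, an acute phase protein made by hepatocytes, is given as an example chosen after its values were seen. It had 124, 922 and 85.3 CPM in WD tumour 1 to 3 and 11834, 523 and 1493 in RD no tumour 1 to 3, with 474 in RD tumour 2. Within the pair RD no tumour 1 was far above WD tumour 2, and outside it the other 2 RD no tumour mice lay above the other 2 WD tumour mice, for a blocked log2 difference of -3.48 ± 0.44 (edgeR adjusted p 1.01e-05, against 0.893 without the block). With the block Nnmt stood at -2.31 ± 0.41 (edgeR adjusted p = 0.00116), Asl at -2.02 ± 0.39 (0.00379) and Airn at 1.96 ± 0.36 (0.00214), but none of these 3 passed without both libraries (edgeR adjusted p = 0.120, 0.164 and 0.162). Saa1, Orm1, the Mup genes, Serpina1e and the haemoglobin genes have members of high sequence likeness in their families and can share reads. Most of the genes named here are known from hepatocytes or red cells, and the part of RNA of such cells in these differences was not tested.

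In the lists, 0 genes passed without the block. Of 8 portal genes tested 4 had an unadjusted p under 0.05, against 174 of all 3782 genes tested (4.6%). The lists are short, so the counts here are not read as a result about a list. Msr1 had a log2 difference of -0.92, Adgrg6 of -0.995 and Vegfc of -1.04, and Lama4 of 1.67, each with an edgeR adjusted p of 0.916 to 0.945. Of the central vein genes tested 0 of 8 had an unadjusted p under 0.05: Rspo3 had 1425, 1053 and 768 CPM in WD tumour mice, 874, 820 and 1050.1 in RD no tumour mice, while RD tumour 2 had 259 (0.20 ± 0.37). Wnt2 differed by 0.52 and Wnt9b by -0.39, with groups that overlapped for Rspo3 and Wnt9b. RD tumour 2 had the lowest Rspo3 of the 7 mice. The continuous, sinusoidal, venous, lymphatic and leukocyte adhesion lists each held 1 gene at an unadjusted p under 0.05, the VEGF list 3 and the matrix list 2, and the other 7 lists, pan-endothelial and Notch genes among them, held 0.

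Finally, the change between WD tumour and RD no tumour was compared between vascular and sinusoidal nuclei by an interaction term, since a change in 1 class says nothing of a difference from the other. Of 9440 genes tested 4 (0.0424%) passed, and 421 (4.46%) had an unadjusted p under 0.05. Nrg1 (ENSMUSG00000062991, chromosome 8, 31814551 to 32884029 in GRCm38, minus strand) had 31.0, 132 and 97.5 CPM in vascular nuclei of WD tumour 1 to 3 and 168, 287 and 345 in RD no tumour 1 to 3. In sinusoidal nuclei of the same mice it had 37.3, 24.6 and 50.7 CPM in WD tumour mice against 10.3, 8.83 and 4.79 in RD no tumour. The groups thus did not overlap in either class and lay in opposite order. The difference of the changes was -3.65 ± 0.51 on the log2 scale (edgeR interaction, adjusted p 1.68e-06), and RD tumour 2 had 43.1 CPM in vascular nuclei. The 107 Nrg1 UMIs of vascular nuclei came from 43 nuclei, 3, 8 and 3 in WD tumour 1 to 3, 10, 8 and 9 in RD no tumour 1 to 3 and 2 in RD tumour 2. Nrg1 is among the genes that lead the portal-like cluster, and whether its level followed the number of such nuclei or RNA per nucleus was not tested. With nuclei of at most 5% mitochondrial UMIs the difference was -2.49 and did not pass (adjusted p = 0.173), but WD tumour 1 and 3 then had too few nuclei and were dropped, so that 1 WD tumour mouse was left and the mitochondrial share itself was not tested.

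Vegfc (chromosome 8, 54077606 to 54187096, plus strand), which encodes a ligand of Flt4 and Kdr, had 51.6, 46.1 and 60.9 CPM in vascular nuclei of WD tumour and 124, 113 and 65.6 in RD no tumour, and 24.8, 116 and 66.0 against 35.9, 21.0 and 9.58 in sinusoidal nuclei. The difference of the changes was -2.55 ± 0.57 (edgeR interaction, adjusted p = 0.0455), close to the threshold. Its size was -2.46 without RD no tumour 2 (adjusted p = 0.105), -2.45 without RD no tumour 3 (0.115), -2.57 with Vwf of at least 2 UMIs (0.320) and -2.48 with DESeq2 (1.00), none of which passed. Without WD tumour 2 it was -1.74 (0.943). In the fit with Vwf of at least 2 UMIs, RD no tumour 3 had 17 vascular nuclei, too few, and was dropped.

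The calls of Grm8, a glutamate receptor gene (4.56 ± 0.75), and Meg3, an imprinted long non-coding RNA (5.61 ± 1.16), rested on 1 nucleus. All 33 Grm8 and all 31 Meg3 UMIs of the vascular nuclei of WD tumour mice lay in this nucleus of WD tumour 2, which had 8402 UMIs and 3035 genes, 3 Pecam1 UMIs, 1 Vwf UMI and 0 of Ptprb, Flt1 and Adgrl4, and fell into the cluster led by hepatocyte genes. Without it Grm8 turned to -4.0 (edgeR adjusted p = 0.998) and Meg3 was too low to be tested.

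**Figure D5:**
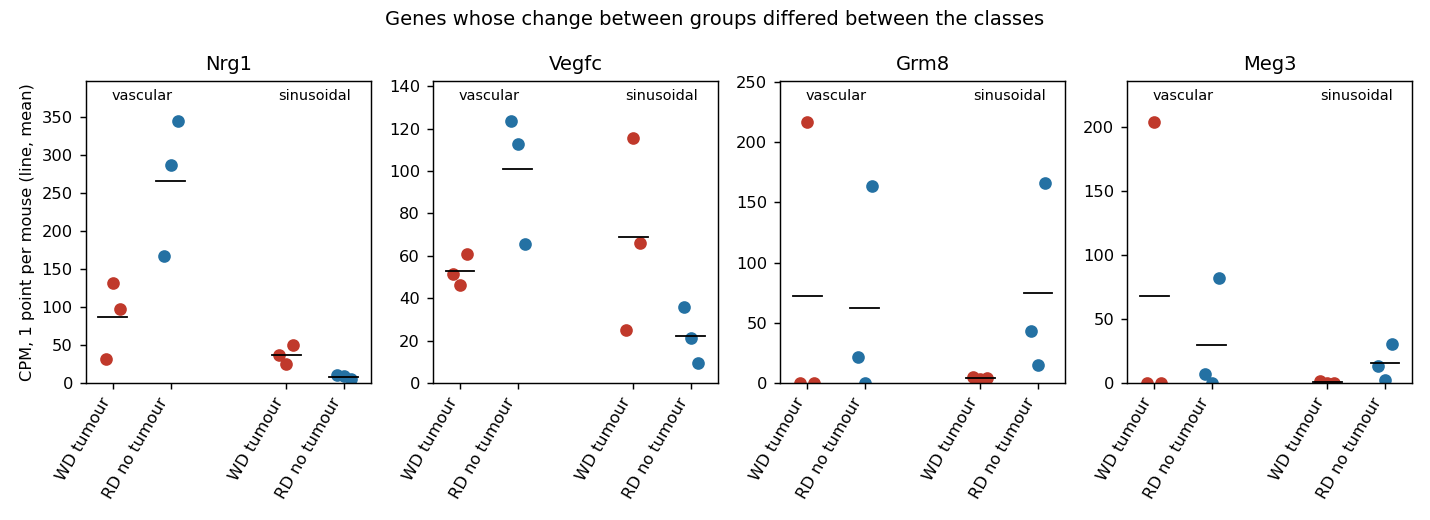
CPM (vertical axis) of the 4 genes whose change between WD tumour (red) and RD no tumour (blue) differed between vascular and sinusoidal nuclei, 1 point per mouse with the mean as a line. Nrg1 is higher in RD no tumour in vascular nuclei (168 to 345 against 31.0 to 132) and lower in sinusoidal nuclei, and the WD tumour means of Grm8 and Meg3 come from WD tumour 2 alone.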

How the data were processed

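Single-nucleus RNA-seq of snap-frozen liver was done with 10x 3′ chemistry, version 3.1, per the labels' protocols. For each of 8 mice the authors deposited a matrix of UMI counts, genes by barcodes. Per the file headers the tool was Cell Ranger 7.0.0, and the submitters' processing notes name mm10. The annotation, the counting of introns, strand use and the calling of cells are not given in the sources used here. Positions are from GENCODE M21 (GRCm38), which holds 32158 of the 32285 gene IDs. No file gives cell types.

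Members were found by the rule of the opening. The members and the gene lists were chosen with earlier results of these data known. Counts of the nuclei of a class were added up within each mouse and tested with edgeR 4.0.16 (R 4.3.3) by the quasi-likelihood test with TMM scaling, filterByExpr and Benjamini-Hochberg adjustment over all genes tested, and CPM is counts per 1000000 UMIs of the summed nuclei. The 10 genes of the rule stayed in the fits and in the adjustment. They were left out of the counts of genes tested and called and of the named genes. The 3 fits were vascular against sinusoidal nuclei (mouse as a block), WD tumour against RD no tumour in vascular nuclei (RD tumour 2 as its own group, which lets a gene pass the filter with 1 mouse), and the difference of that change between the classes. In the last, RD tumour 2 was not used. DESeq2 1.42.0 was an alternative. Each fit was tested on simulated data. Changes of 4-fold and 16-fold were recovered in 95% and 100% of genes between classes and 66% and 87% between groups. For the difference of changes they were recovered in 41% and 80%. Unchanged genes called were 12 of 7747, 16 of 3587 and 1 of 9249 in the same order.

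Named genes were, between classes, those of the 12 largest log2 differences in each direction with the same sign in 7 mice and a mean of at least 50 CPM in the higher class. Between groups they were the 8 with the lowest p in each direction whose groups did not overlap, with at least 20 CPM in the higher group, and for each list up to 4 genes of largest difference. Other listed genes were named after their values were seen. Clusters within the vascular nuclei used scanpy 1.11.5 (1500 variable genes, 10 principal components of values centred per mouse, 15 neighbours, Leiden resolution 1). Doublets were called with Scrublet and kept, since 0 to 7 vascular nuclei per mouse were called, and leaving them out was an alternative. Shares were compared by an exact permutation test. The other alternatives were size factors, no filter on low counts, stricter terms of the rule, thinning to 1000 UMIs, and leaving out mice, clusters or 1 nucleus. The labels do not say more of the replicates than that each is a mouse.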

Additional observations from a re-analysis of the deposited data

Results flagged for a closer look

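In 4 genes the change between WD tumour and RD no tumour differed between vascular and sinusoidal nuclei by the edgeR interaction term, each given as the vascular minus the sinusoidal log2 change: Nrg1 at -3.65, Vegfc at -2.55, Grm8 at 4.56 and Meg3 at 5.61. For Nrg1 the groups did not overlap in either class and lay in opposite order, and for Vegfc they did not overlap in vascular nuclei. Within sinusoidal nuclei alone neither Nrg1 nor Vegfc passed (edgeR adjusted p = 0.958 for both). For Grm8 and Meg3 the values of WD tumour rested on 1 nucleus of WD tumour 2.

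In the RD tumour 1 library, which no comparison uses, 41 of 20000 barcodes met the same rule. No test was made with these nuclei.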

How the results depend on the processing

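Limits are the 35 to 61 nuclei per mouse and the 3 mice per group. With Vwf of at least 2 UMIs, RD no tumour 3 and RD tumour 2 had 17 and 16 vascular nuclei. Both were under the 20 asked of a mouse and were dropped from the gene fits of that setting. Leaving out each mouse in turn, the log2 difference in the share of all nuclei was -0.0448 to 0.421 and in the share of endothelial nuclei 0.271 to 0.829 (-0.0448 without RD no tumour 3). Genes passing between classes numbered 566 to 618, between groups 0 to 1 (1 each without WD tumour 2, Serpina1e, and without RD no tumour 1, Mup7) and for the difference of changes 2 to 18. Against 680, 0 and 4 genes passing, there were 1167 (369 higher), 24 (9 higher) and 11 with no filter on low counts. Without RD no tumour 1 and WD tumour 2 there were 437, 14 and 5. Between classes, 359 passed after thinning to 1000 UMIs, 1351 without the hepatocyte and leukocyte gene clusters, and 254 (169 higher) without the mouse block. Between groups, 25 passed with the library pair as a block and 2 (A2m and Hamp) with at most 5% mitochondrial UMIs, where WD tumour 1 and 3 were dropped and 1 WD tumour mouse was left. For the difference of changes, 1 passed with DESeq2, 1 with Vwf of at least 2 UMIs, 8 with at most 5% mitochondrial UMIs and 7 without doublet calls. Leaving out the library pair, the 2 clusters or 1 nucleus was chosen after seeing the data. The library pair used as a block shows in the same counts that were tested. The causes were not tested. Replicate numbers are shared between the groups, but same-numbered mice did not deviate together (correlations of -0.43, -0.42 and -0.01), so the numbers do not pair the mice. The fit with the replicate number as a block called 0 of 2181 genes (64 at an unadjusted p under 0.05).

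Of 58 named genes called between classes, 42 kept their call under every alternative in which they were tested, and 16 lost it in some: Angpt2, Bgn, Bmp6, Cavin2, Cgnl1, Cxcl9, Emcn, Esm1, Fabp4, Il1r1, Lyve1, Nos3, Notch1, Nr2f2, Tie1 and Vegfc. Signs turned for genes not called: Cxcl12 between classes (-0.060 with no filter, -0.25 with Vwf of at least 2 UMIs, -0.52 without the 2 clusters, -0.0053 without the library pair), Efnb2 (-0.12 with no filter, -0.28 with Vwf of at least 2 UMIs, -0.17 after thinning, and, leaving out each mouse, -0.22 without RD no tumour 2 up to 0.19) and Notch4 (0.020 without the 2 clusters). Between groups Wnt9b turned to 0.55 with at most 5% mitochondrial UMIs, where WD tumour 2 was the 1 WD tumour mouse left, and Cdh13 to -0.15 after thinning. The difference of changes turned for Grm8 (-3.46 with Vwf of at least 2 UMIs, -4.0 without 1 nucleus, -4.42 without the library pair, and, leaving out each mouse, -4.19 without WD tumour 2 up to 5.35) and Meg3 (-3.97 without the library pair, and -3.36 without WD tumour 2 up to 8.67).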
